A study of Mus musculus with 8 samples.

Results

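The Hox genes of the mouse clusters A, B, C and D were described in embryonic lung mesenchyme, the connective tissue that surrounds the branching airway. They were chosen by name, as every probe set whose platform symbol is on a list of 38 Hox genes. The rule used no measured value, but the list was chosen with earlier results of these data known. Of the 38, 33 had a probe set of their own, out of 18193 genes that did, with 48 such probe sets in all. Hoxb8 and Hoxd4 were represented only by probe sets shared with a neighbouring Hox gene, and Hoxa6, Hoxc11 and Hoxc12 by none, so these 5 carry no value of their own here. The 8 Affymetrix arrays came from CD1 mouse embryos at e11.5 to e12.5 and form 4 groups of 2. The tip group is mesenchyme from around the branch tips, taken straight after dissection. The Wnt1 culture group is stalk mesenchyme kept for 12 h on culture plastic in medium with Wnt1 at 400 ng/ml, and the control culture group was kept alongside in medium without it. The stalk group is mesenchyme from around the branch stalks, taken straight after dissection. No allele other than the CD1 background is given for any group, and both culture groups started from stalk. Nothing says whether the arrays of a group came from separate litters, or how many embryos were pooled, so the p-values reflect how far these arrays scatter, possibly for technical reasons alone.

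Hox genes encode homeodomain transcription factors that give cells a position along the head-to-tail axis. Within a cluster, genes with low paralogue numbers lie at the 3′ end and are active first and furthest forward, and genes with high numbers follow towards the 5′ end and the tail. Hox proteins bind DNA together with TALE homeodomain cofactors of the Pbx, Meis and Pknox families, while Trithorax proteins such as Kmt2a keep clusters active and Polycomb proteins keep them silent. In the mouse, loss of Hoxa5 disturbs airway and lung formation, and the group 5 genes Hoxa5, Hoxb5 and Hoxc5 act in lung mesenchyme. The comparisons ask whether tip and stalk mesenchyme differ in these genes, and whether culture or added Wnt1, a secreted ligand of the Wnt pathway, moves them.

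Promoter sequences are shown first for 5 genes, read from RefSeq's table for GRCm38.p6, as the 250 bases before the start on the gene's own strand. Hoxb4 and Hoxc4 are paralogues of group 4 with signal above the background level used here on every array, Hoxa5 and Hoxb1 are 2 more such genes, and Hoxa7 lies near Hoxa5 in cluster A and was dim on every array. The table held 24 windows for 22 of the 38 genes. Capitals in Hoxb1 mark a match to TGATNNAT, the core of the composite site to which Hox and Pbx proteins bind together. In Hoxb4 and Hoxc4 they mark runs of at least 9 bases that both windows hold, and in Hoxa5 the CCAAT box, a common promoter element, which lies there on the opposite strand. Hoxa7 has no marked match. The Hoxb1 window is chr11:96365508-96365757 on the plus strand and overlaps the annotated span of Hoxb1 itself. The Hoxb4 window, chr11:96318017-96318266 on the plus strand, overlaps the span of Hoxb3. The Hoxc4 window, chr15:103034145-103034394 on the plus strand, overlaps the annotated spans of Hoxc4 and of the predicted gene Gm30528. The Hoxa5 window, chr6:52204588-52204837 on the minus strand, overlaps the spans of Hoxa3 and of the non-coding gene Hoxaas3, and the Hoxa7 window, chr6:52218574-52218823 on the minus strand, overlaps no annotated gene span.
Hoxb1: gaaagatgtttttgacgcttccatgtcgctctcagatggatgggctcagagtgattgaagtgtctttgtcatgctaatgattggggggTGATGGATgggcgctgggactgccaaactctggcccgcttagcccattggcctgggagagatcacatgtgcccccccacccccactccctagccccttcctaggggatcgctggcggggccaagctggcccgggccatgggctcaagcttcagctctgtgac
Hoxb4: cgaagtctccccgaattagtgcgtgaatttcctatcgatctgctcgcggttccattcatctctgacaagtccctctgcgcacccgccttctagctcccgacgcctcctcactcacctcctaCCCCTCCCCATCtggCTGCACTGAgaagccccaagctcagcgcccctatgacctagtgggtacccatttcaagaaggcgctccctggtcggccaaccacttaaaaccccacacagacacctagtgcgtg
Hoxc4: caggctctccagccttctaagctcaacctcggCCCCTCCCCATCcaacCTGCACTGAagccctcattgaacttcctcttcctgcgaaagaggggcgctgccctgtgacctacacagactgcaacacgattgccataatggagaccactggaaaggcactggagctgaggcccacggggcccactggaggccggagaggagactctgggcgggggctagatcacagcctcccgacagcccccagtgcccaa
Hoxa5: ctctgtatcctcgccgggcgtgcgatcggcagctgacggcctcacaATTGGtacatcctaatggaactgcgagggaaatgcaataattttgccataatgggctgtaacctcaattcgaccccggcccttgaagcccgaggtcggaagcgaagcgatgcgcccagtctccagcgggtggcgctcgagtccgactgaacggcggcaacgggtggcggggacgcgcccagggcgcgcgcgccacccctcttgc
Hoxa7: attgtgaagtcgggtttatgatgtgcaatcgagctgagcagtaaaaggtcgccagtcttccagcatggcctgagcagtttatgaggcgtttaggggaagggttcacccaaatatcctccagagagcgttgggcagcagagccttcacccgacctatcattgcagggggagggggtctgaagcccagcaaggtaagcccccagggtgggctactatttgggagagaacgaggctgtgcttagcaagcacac

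The first shared run, CCCCTCCCCATC, starts 129 bases before the Hoxb4 start and 218 before the Hoxc4 start. The second, CTGCACTGA, follows at 114 and 202 bases. On either strand, 25 of all 32851 RefSeq windows (0.0761%) hold the first run and 115 (0.35%) the second, and among the Hox windows only these 2 genes do. The shortest run length was chosen after the sequences had been seen. TGATNNAT was in 4 Hox windows, those of Hoxa2, Hoxb1, Hoxb8 and Hoxd11 (16.7%), against 7.68% of all windows. TATAAA was in 4 (16.7%), against 12.4% of all, CCAAT in 14 (58.3%), against 33.8%, and GGGCGG in 10 (41.7%), against 32.7%, each counted on both strands. The 5 windows of genes above background on all uncultured arrays held a median of 8 CpG, the 16 of measured genes that were not held 13, and all windows 6. These are matches of letters and not sites shown to be bound.

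Values below are the deposited linear signals of 1 probe set per gene, the brightest where a gene had several. Array medians were 76.5 to 99.8 without culture and 149 to 299 in culture, and the ratio of 3′ to 5′ beta-actin probe sets, which rises as RNA is shortened, was 2.02 to 4.52 without culture and 6.81 to 24.4 in culture. The arrays of the Wnt1 group differed in both. Replicate 2 had a median of 149 and a ratio of 6.81, and replicate 1 had 296 and 21.2. The control culture ratios were 23.3 and 24.4. Log signals of replicate arrays correlated at 0.974 for tip, 0.833 for Wnt1 culture, 0.824 for control culture and 0.975 for stalk. The highest array median, 299, stands in for a background level here, and a gene is called detected in a group where both arrays lie above it. On each uncultured array 49.2 to 49.9% of the 16112 genes tested lay above that level, and on each culture array 51.1 to 68.2%. Defining genes of the labelled tissue were present. Tbx4, a transcription factor of lung mesenchyme, had 2942 and 3793 on the tip arrays and 3432 and 4304 on the stalk arrays. Epithelial markers were mixed on those 4 arrays. Nkx2-1, the lung epithelial regulator, stayed at or below 97.8. Krt8 had 1118.5 and 537 in tip and 486 and 606 in stalk. Krt18 had 1046 and 573 in tip and 754 and 496 in stalk. Both lay above 299 on all 4, and the other measured epithelial markers on none. Signals of different probe sets are not on a common scale, so levels are compared between arrays and not between genes.

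Detected Hox genes in uncultured mesenchyme were those of low paralogue number in clusters A, B and C. Of the 13 measured genes of groups 1 to 6 in these clusters, 12 were detected in tip and 11 in stalk. None of the 18 measured genes of groups 7 to 13 was detected in either, and none of the 8 of cluster D. Cluster A gave 4 of 9 in tip and 3 of 9 in stalk, cluster B 6 of 9 in both, and cluster C 2 of 7 in both. Hoxc6 was the gene of groups 1 to 6 in clusters A to C that was not detected in tip, and Hoxa3 was the further gene missing in stalk, where 1 of its 2 arrays passed. The stop at group 6 depends on the level of 299, which lies above the uncultured array medians. In stalk, Hoxa9 (160.0 and 82.6) and Hoxd13 (156 and 83.4) exceeded the array medians of 95.5 and 76.5. Their tip values lay below the tip medians of 99.8 and 86.3. The probe set shared by Hoxb7 and Hoxb8 had 114 and 189 in tip and 108 and 238 in stalk, above the median of each array.

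**Figure D1:**
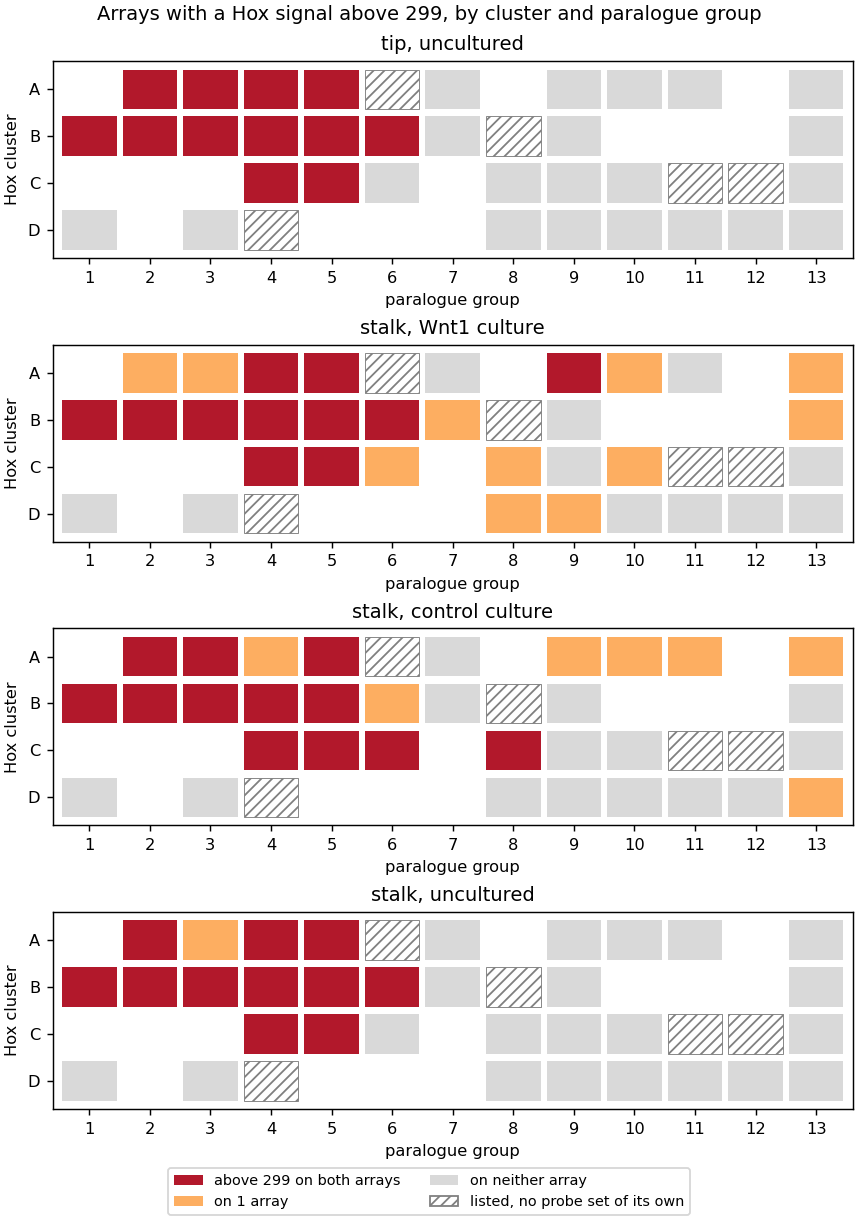
Detection of the Hox genes by cluster (rows A to D) and paralogue group (columns 1 to 13) in tip, Wnt1 culture, control culture and stalk, from top to bottom. Red marks genes above a signal of 299 on both arrays, orange on 1 array and grey on neither, hatching marks listed genes with no probe set of their own, and empty positions hold no listed gene. Without culture the red positions stop at group 6 and leave out cluster D.

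The 21 measured genes that were not detected in tip ran from 1.92 to 106 there and from 1.39 to 160.0 in stalk. In tip their highest value was that of Hoxd8 and in stalk that of Hoxa9, a gene of the trunk and blood lineages. In culture the same 21 genes ran up to 685 with Wnt1 and 679 without, where the array medians were higher as well. Of the 33 measured genes 12 were detected in tip, 11 in Wnt1 culture, 12 in control culture and 11 in stalk, and Hoxa9 with Wnt1 and Hoxc8 without were the detected genes of groups 7 to 13. Cluster D had no detected gene in any group. Hoxd1 did not pass 80.1 on any array, Hoxd12 not 33.4, and Hoxd10 not 195. Hoxd13, the gene of the digits and external genitalia, had 99.1 and 65.6 in tip, 284 and 46.1 in Wnt1 culture, 679 and 173 in control culture, and 156 and 83.4 in stalk, so that it passed the level on 1 control culture array.

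No Hox gene passed the test between tip and stalk mesenchyme. Of 27 Hox genes tested, 0 were called in either direction at an adjusted p under 0.05 by limma, and 0 had an unadjusted p under 0.05. Over all 16112 genes 0 were called too (0% in each direction), and 91 had an unadjusted p under 0.05. The Hox log2 fold changes of tip over stalk ran from -1.08 (Hoxa9) to 0.75 (Hoxb1), with a median of 0.05 beside 0.01 for all genes. Arrays did not overlap for 4 Hox genes that were higher in tip and 3 that were lower, of 27, while 18.2% of all genes were higher without overlap and 16.2% lower. With 2 arrays a group the errors below are wide, and a missed threshold does not show that the tissues are alike. In bulk tissue, fewer cells of a type and less RNA per cell cannot be told apart.

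Among the most forward genes, Hoxb1, which marks a hindbrain segment in the early embryo, had 1131 and 870.2 in tip, against 852 and 381 in stalk, a log2 fold change of 0.75 ± 0.48 (SE, n = 2 each). The tip arrays lay above the stalk arrays, by little between the nearest of them. Hoxb2, active in the hindbrain and neck, had 1171 and 1509 in tip and 1072 and 1405 in stalk. Hoxa2, which patterns the second pharyngeal arch, had 458 and 465 in tip and 508 and 612 in stalk, with the tip arrays lower. These differences were 0.11 ± 0.35 for Hoxb2 and -0.25 ± 0.46 for Hoxa2 on the log2 scale.

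For group 3, Hoxa3, a gene of thymus and parathyroid formation, had 393 and 441 in tip and 325 and 237 in stalk, with no overlap and a log2 fold change of 0.51 ± 0.49. A second Hoxa3 probe set had 285 and 214 in tip and 183 and 143 in stalk, higher in tip without overlap as well. Hoxb3 had 3239.8 and 2895 in tip, against 2855 and 4393 in stalk, with both tip arrays inside the stalk range. Its log2 fold change was -0.21 ± 0.36.

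For group 4, Hoxa4 had 759 and 693 in tip and 538 and 562 in stalk, with both tip arrays higher and a log2 fold change of 0.37 ± 0.64. Hoxb4, known from blood stem cells, had 2937 and 2161 in tip and 2403 and 2299.8 in stalk. Hoxc4 had 1337 and 1153 in tip and 1247 and 1335 in stalk. The Hoxb4 and Hoxc4 arrays of the groups overlapped, with log2 fold changes of 0.10 ± 0.36 and -0.05 ± 0.32. A second Hoxb4 probe set had 482 and 543 in tip and 401 and 171 in stalk. It was higher in tip without overlap, at 0.84 ± 0.58, and not called.

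For group 5, Hoxa5 had 5042 and 6577 in tip and 5466 and 5813 in stalk, and Hoxb5 had 3590.5 and 4757 in tip and 3900.2 and 5086 in stalk. Both overlapped, with log2 fold changes of 0.03 ± 0.37 and -0.11 ± 0.38. Hoxc5 was uneven within each group, at 856 and 398 in tip and 498 and 1208 in stalk, and its -0.39 ± 0.60 carries a correspondingly wide error. Hoxb6, at the boundary of the detected genes, had 1060.1 and 1025 in tip, against 1383 and 1496 in stalk. Its tip arrays were lower without overlap, with a log2 fold change of -0.45 ± 0.45, and the adjusted p was 0.999925 by limma.

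**Figure D2:**
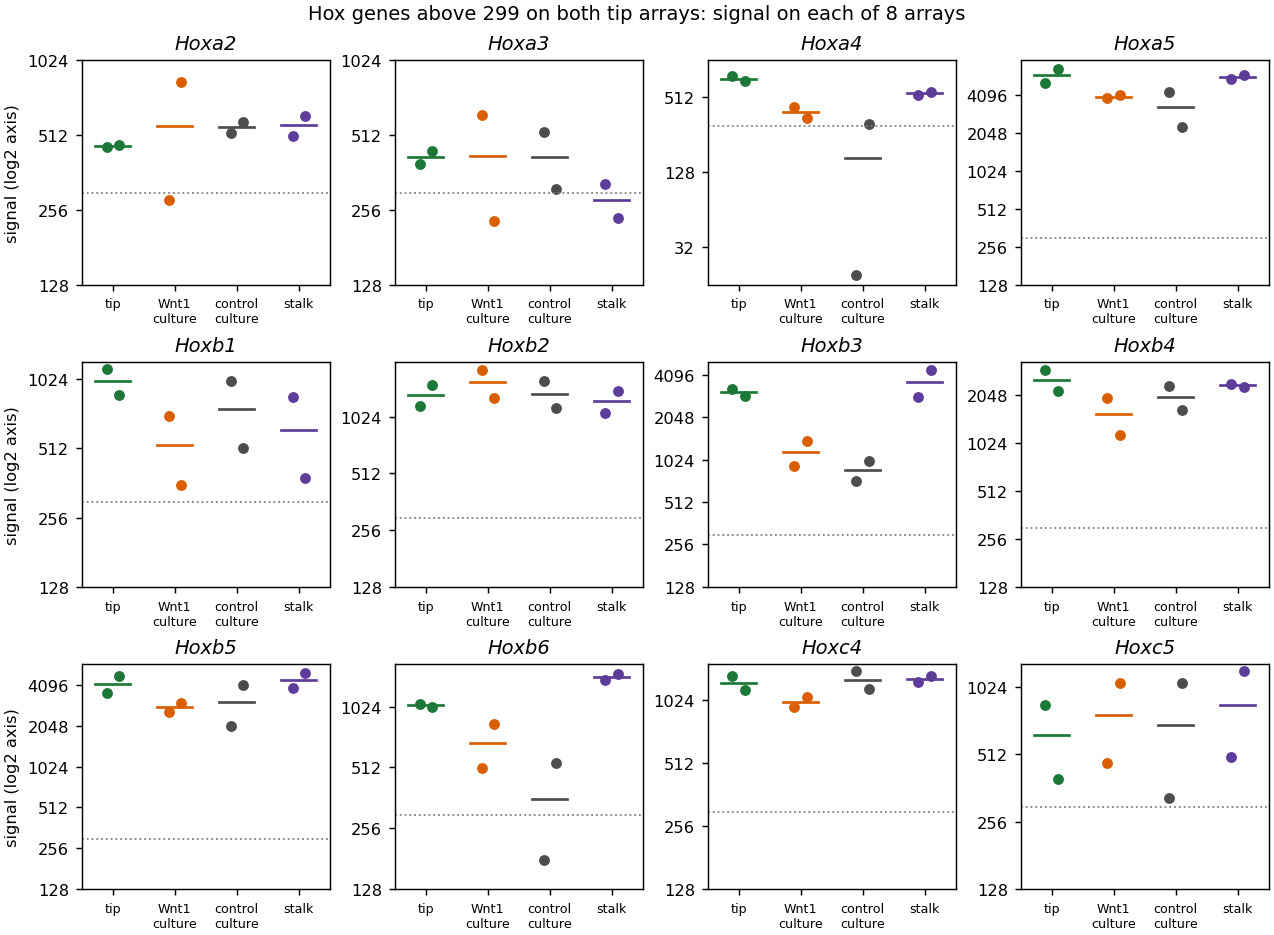
Signal of the 12 Hox genes detected in tip, on each of the 8 arrays (log2 axis, which differs between panels), with tip, Wnt1 culture, control culture and stalk from left to right. Points are arrays, bars are means of 2, and the dotted line is the highest array median, 299. Hoxb3 and Hoxb6 lie lower in both culture groups than in stalk, and Hoxb2 and Hoxc4 stay within a narrow band.

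No Hox gene passed the test between the cultures with and without Wnt1. Of 27 tested, 0 were called in either direction by limma and 1 had an unadjusted p under 0.05, while 0 of all 16112 genes were called (0% in each direction) and 1297 had an unadjusted p under 0.05. Hox log2 fold changes of Wnt1 culture over control culture ran from -1.20 (Hoxd13) to 1.53 (Hoxa4), with a median of -0.05 beside -0.08 for all genes. Arrays were higher with Wnt1 without overlap for 2 Hox genes and lower for 4, of 27, beside 10.1% and 15.9% of all genes.

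The Hox gene with the unadjusted p under 0.05 was Hoxa4, at 432 and 349 with Wnt1, against 18.9 and 313 in control culture, a log2 fold change of 1.53 ± 0.64 with adjusted p = 0.580 by limma. Control culture replicate 1 was the lowest of the 8 arrays. Without it the log2 fold change was 0.28 (adjusted p = 0.888), and without control culture replicate 2 it was 2.78 and called (adjusted p = 0.0339). A second Hoxa4 probe set had 117 and 209 with Wnt1 and 504 and 126 in control culture, the opposite direction, at -0.59 ± 0.60. Hoxb6 had 507 and 839.9 with Wnt1 and 177 and 537 in control culture, with overlap, a log2 fold change of 0.96 ± 0.45 and adjusted p = 0.624. For Hoxb3 the values were 924 and 1377 with Wnt1 and 722 and 998 in control culture, and its 0.39 ± 0.36 did not pass either.

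The remaining detected genes were not called between the cultures. Hoxa5 had 3835 and 4029 with Wnt1 and 4312 and 2276 without, Hoxb5 had 2593 and 3051 with Wnt1 and 2031 and 4147 without, and both overlapped. Hoxb2 had 1818 and 1287 with Wnt1 and 1573 and 1139 without, and Hoxb4 had 1956 and 1149 with Wnt1 and 2336 and 1644 without. Hoxc4 was lower with Wnt1 without overlap, at 951 and 1059.6 with it, against 1411 and 1157 without, a log2 fold change of -0.33 ± 0.32, adjusted p = 0.865 by limma. The other log2 fold changes were 0.32 ± 0.37 for Hoxa5, -0.05 ± 0.38 for Hoxb5, 0.19 ± 0.35 for Hoxb2 and -0.38 ± 0.36 for Hoxb4.

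Of the Hox genes detected in stalk, Hoxb3, Hoxb6 and Hoxa4 were lower after culture without Wnt1, and the other 8 were not called. Over all 27 Hox genes tested, 5 were higher and 3 lower in control culture than in stalk (18.5% and 11.1%), while 17.1% of all genes were called higher and 9.26% lower, and 26.4% either way, so the counts lie near the background. The median log2 fold change of all genes was 0.45, and that of the 13 Hox genes that passed the signal filter on uncultured arrays was -0.26. Of these 13 genes, 3 were lower (23.1%), beside 13.3% of the 11210 genes that passed in the same way, whose median was -0.12. The counts depend on scaling and on single arrays. With arrays centred on their medians, 2 Hox genes were higher and 4 lower, beside 341 and 4056 of all genes, and with quantile normalization 2 and 1, beside 555 and 692, against 2759 and 1492 of all genes as deposited. Without stalk replicate 1 the Hox counts were 0 and 1, without stalk replicate 2 they were 0 and 0, and without control culture replicate 1 they were 2 and 1.

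Hoxb3 had 722 and 998 in control culture, against 2855 and 4393 in stalk. Every control culture array was below every uncultured array, and the log2 fold change was -2.01 ± 0.36 (SE, n = 2 each, adjusted p = 0.00657 by limma). A second Hoxb3 probe set had 476 and 646 in control culture and 483 and 828 in stalk, with overlap and a log2 fold change of -0.18 ± 0.40 (adjusted p = 0.752 when each probe set was tested), so the fall was seen by 1 of the gene's 2 probe sets. The annotated spans of Hoxb3 and Hoxb4 overlap, and which transcripts each probe set reads was not tested. Leaving out stalk replicate 2 ended the call of Hoxb3, at a log2 fold change of -1.70 with adjusted p = 0.0948.

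Hoxb6 had 177 and 537 in control culture, against 1383 and 1496 in stalk, without overlap, a log2 fold change of -2.05 ± 0.45 (adjusted p = 0.0126 by limma). It was not called when control culture replicate 1 was left out (-1.35, adjusted p = 0.0672), or either stalk array. Hoxa4 had 18.9 and 313 in control culture, against 538 and 562 in stalk, a log2 fold change of -1.99 ± 0.64 (adjusted p = 0.0389 by limma). Without control culture replicate 1 its log2 fold change was -0.73 with adjusted p = 0.24, and its second probe set had 504 and 126 in control culture and 246 and 166 in stalk, at 0.31 ± 0.60. Hoxa4 was the least stable of the 3, called in 13 of 23 alternative settings, beside 18 for Hoxb6 and 22 for Hoxb3.

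The group 5 genes were not called. Hoxa5 had 4312 and 2276 in control culture, against 5466 and 5813 in stalk, lower without overlap at -0.84 ± 0.37 on the log2 scale (adjusted p = 0.0997 by limma), but its second probe set had 2068 and 3554 in control culture and 3163 and 1571 in stalk, at 0.28 ± 0.41. Hoxb5 had 2031 and 4147 in control culture and 3900.2 and 5086 in stalk (-0.61 ± 0.38), and Hoxc5 had 327 and 1065 in control culture and 498 and 1208 in stalk (-0.36 ± 0.60). The arrays of Hoxb5 and of Hoxc5 overlapped between the groups. Of the 2 other Hoxc5 probe sets, 1 was too dim to be tested. The other had 309 and 176 in control culture, against 58.5 and 19.3 in stalk. It was higher without overlap, the opposite direction, at 1.79 ± 0.64, and was not called (adjusted p = 0.0625 by limma when each probe set was tested).

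Hoxc4 had the narrowest range of the 8 Hox genes above 299 on every array. It had 1411 and 1157 in control culture and 1247 and 1335 in stalk, and over all 8 arrays its highest signal was 1.48 times its lowest. Of the 5708 genes above 299 on all 8 arrays, 2.08% had a smaller ratio, and the median ratio was 2.70. Hoxb2, at 1573 and 1139 in control culture and 1072 and 1405 in stalk, had a ratio of 1.70 over the 8 arrays, with 6.74% of those genes below it. Ratios for the rest of the 8 Hox genes in that set were 2.50 for Hoxb5, 2.56 for Hoxb4, 2.89 for Hoxa5, 3.18 for Hoxb1, 3.70 for Hoxc5 and 6.09 for Hoxb3. That of Hoxb3 exceeded 94.5% of the 5708 genes. The fit gave -0.01 ± 0.32 for Hoxc4 and 0.12 ± 0.35 for Hoxb2 on the log2 scale, and with arrays centred on their medians, which differ between the groups, -1.20 and -1.06.

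Hoxb4 had 2336 and 1644 in control culture and 2403 and 2299.8 in stalk, and Hoxb1 had 998 and 515 in control culture and 852 and 381 in stalk. Hoxa2 had 522 and 578 in control culture and 508 and 612 in stalk, and Hoxa3 had 524 and 310.2 in control culture and 325 and 237 in stalk. The arrays of these 4 genes overlapped between the groups, and their log2 fold changes were -0.26 ± 0.36, 0.31 ± 0.48, -0.02 ± 0.46 and 0.48 ± 0.49, in that order. Of the other Hoxa3 probe sets, the brightest had 735 and 334 in control culture and 183 and 143 in stalk, higher without overlap at 1.40 ± 0.58 (adjusted p = 0.0928 by limma when each probe set was tested). The second Hoxb4 probe set had 703 and 174.5 in control culture and 401 and 171 in stalk. It overlapped, with the opposite sign to the first, at 0.38 ± 0.58.

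The 5 Hox genes called higher in control culture were Hoxc6, Hoxc8, Hoxc10, Hoxa10 and Hoxd11, genes of trunk, lumbar and limb levels. All 5 were undetected in stalk and were among the 14 Hox genes that passed the signal filter only through culture arrays, so that higher values in culture were built into their passing. Of those 14, 5 were called higher (35.7%), beside 34.4% of the 4902 genes that passed in that way, and their median log2 fold change was 1.52 beside 1.57, so the share lies near the background. With all dim values raised to the highest array median, 0 Hox genes were called higher.

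Hoxc6 had 674 and 539 in control culture, against 10.0 and 53.1 in stalk, which is at least 2.02-fold higher when the geometric mean of the control culture arrays is set against the level of 299. Such a bound is given only where both culture arrays exceed the level. It holds for the deposited signals and takes no account of the array medians, 299 and 209 in control culture, against 95.5 and 76.5 in stalk. Hoxc8 had 645 and 411 in control culture, against 4.43 and 2.98 in stalk, at least 1.72-fold higher in the same reckoning. These were the genes of the 5 with both control culture arrays above 299. Fitted log2 fold changes, which depend on the constant added before the logarithm, were 3.16 ± 0.55 for Hoxc6 (adjusted p = 0.00585 by limma) and 3.55 ± 0.59 for Hoxc8 (adjusted p = 0.00525). Of the 2 other Hoxc6 probe sets, 1 was too dim to be tested and the other had 118 and 372 in control culture, against 56.4 and 48.1 in stalk, and was not called (1.43 ± 0.66, adjusted p = 0.123 when each probe set was tested).

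Hoxc10 had 276 and 222 in control culture, against 15.1 and 12.5 in stalk, Hoxa10 had 417 and 199 in control culture, against 32.5 and 16.4 in stalk, and Hoxd11 had 230.3 and 128 in control culture, against 4.26 and 8.61 in stalk. In each the control culture arrays were higher without overlap. Not both of them lay above 299, and their geometric means were 248, 288 and 172, so no bound on the fold is given. Their fitted log2 fold changes were 2.34 ± 0.56, 2.30 ± 0.64 and 2.11 ± 0.62, with adjusted p = 0.0160, 0.0252 and 0.0287 by limma. A second Hoxa10 probe set had 587 and 56.8 in control culture, against 61.4 and 23.2 in stalk, with overlap, and was not called (1.58 ± 0.78, adjusted p = 0.146). Hoxa9 had 536 and 229 in control culture, against 160.0 and 82.6 in stalk, and was not called (1.31 ± 0.55, adjusted p = 0.0910).

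**Figure D3:**
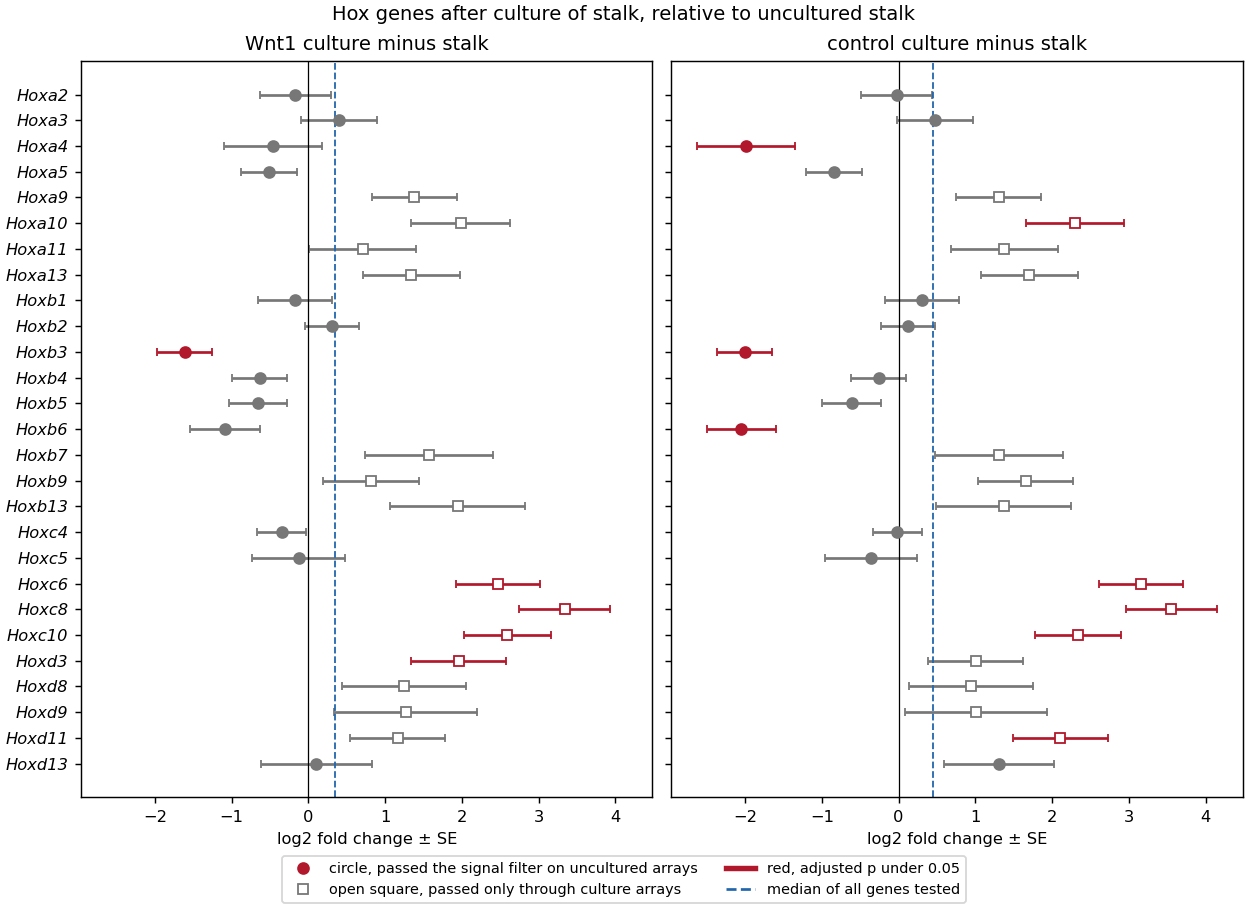
Log2 fold change with its standard error for the 27 Hox genes tested, in Wnt1 culture over stalk on the left and control culture over stalk on the right. Circles passed the signal filter on uncultured arrays, open squares only through culture arrays, red marks an adjusted p under 0.05, and the dashed line is the median of all genes (0.35 on the left, 0.45 on the right). Red squares all lie on the higher side and red circles on the lower side.

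Wnt1 culture was set against the same stalk arrays, so its values are not independent of those just given. Of 27 Hox genes, 4 were called higher and 1 lower (14.8% and 3.7%), beside 9.35% and 6.88% of all genes, and the median of all genes was 0.35. With arrays centred on their medians the Hox counts were 2 and 3, beside 238 and 2812 of all genes, and with quantile normalization 2 and 0, beside 309 and 372, against 1506 and 1109 as deposited. The Hox counts were 0 and 0 without either stalk array, 1 and 0 without Wnt1 culture replicate 1, 8 and 1 without Wnt1 culture replicate 2, and 5 and 2 without either control culture array. The gene called lower was Hoxb3, at 924 and 1377 in Wnt1 culture, against 2855 and 4393 in stalk, a log2 fold change of -1.61 ± 0.36 (adjusted p = 0.0161 by limma). Its second probe set had 801 and 608 in Wnt1 culture and 483 and 828 in stalk, at 0.13 ± 0.40. Hoxb3 was not called without stalk replicate 1 (-1.92, adjusted p = 0.0811), without stalk replicate 2 (-1.31, adjusted p = 0.185) or without Wnt1 culture replicate 1 (-1.34, adjusted p = 0.0734).

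Hoxb6 had 507 and 839.9 in Wnt1 culture, against 1383 and 1496 in stalk, lower without overlap at -1.09 ± 0.45 but not called (adjusted p = 0.103 by limma). Hoxa4 had 432 and 349 in Wnt1 culture and 538 and 562 in stalk, at -0.46 ± 0.64. Whether these genes respond differently in the cultures is the comparison of Wnt1 with control culture above, in which neither passed. Hoxb4, Hoxb5, Hoxa5 and Hoxc4 were also lower without overlap, at -0.63 ± 0.36, -0.66 ± 0.38, -0.52 ± 0.37 and -0.35 ± 0.32 on the log2 scale, with adjusted p of 0.212, 0.224, 0.312 and 0.432 by limma. In all, 7 of 27 Hox genes were lower without overlap (25.5% of all genes were) and 13 higher (41.5% of all genes).

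Hoxb1 had 704 and 356 in Wnt1 culture, Hoxa2 281 and 835, Hoxa3 614 and 231 and Hoxc5 468 and 1067. Each spread widely between its 2 Wnt1 arrays and overlapped with stalk. Their log2 fold changes over stalk were -0.17 ± 0.48, -0.17 ± 0.46, 0.40 ± 0.49 and -0.13 ± 0.60, in that order, and that of Hoxb2 was 0.31 ± 0.35.

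The genes called higher in Wnt1 culture were Hoxc8, Hoxc10, Hoxc6 and Hoxd3, all undetected in stalk and all among the 14 that passed the filter only through culture, of which 28.6% were called, beside 17.3% of all genes of that kind. Hoxc8 had 685 and 276 in Wnt1 culture, against 4.43 and 2.98 in stalk. With 1 of 2 Wnt1 arrays above 299, no bound on its fold is given. Hoxc6 had 463 and 273 in Wnt1 culture, against 10.0 and 53.1 in stalk, again with 1 array above and no bound. Its other tested probe set had 64.0 and 63.4 in Wnt1 culture, against 56.4 and 48.1 in stalk, at 0.16 ± 0.66 (adjusted p = 0.875 when each probe set was tested). Hoxc10 had 406 and 227 in Wnt1 culture, against 15.1 and 12.5 in stalk, with 1 of 2 Wnt1 arrays above 299 and no bound. Hoxd3 had 251 and 170.4 in Wnt1 culture, against 8.84 and 35.1 in stalk, with neither Wnt1 array above 299 and no bound. The call of Hoxd3 was less stable, made in 10 of 22 alternative settings, beside 20 of 23 for Hoxc8. With arrays centred on their medians, Hoxd3 was not called (0.98, adjusted p = 0.196 by limma). The 2 probe sets shared by Hoxd3 and Hoxd4 gave log2 fold changes of 0.58 and -0.28 for Wnt1 culture over stalk. The fitted log2 fold changes were 3.34 ± 0.59, 2.47 ± 0.55, 2.59 ± 0.56 and 1.96 ± 0.62 for Hoxc8, Hoxc6, Hoxc10 and Hoxd3, with adjusted p = 0.00779, 0.0164, 0.0155 and 0.0489 by limma. Hoxa10, at 424 and 111 in Wnt1 culture, Hoxd11, at 59.3 and 79.3, and Hoxa9, at 378 and 369.9, were higher than in stalk without overlap and were not called. As in control culture, 0 were called higher once dim values were raised to the highest array median.

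The non-coding gene Hoxb5os, which lies between Hoxb7 and Hoxb6 in RefSeq's order and whose span overlaps those of Hoxb6 and Hoxb5, went the other way from Hoxb6. It had 8024 and 3805 in control culture, against 1622 and 1546 in stalk, a log2 fold change of 1.78 ± 0.41 (adjusted p = 0.0144 by limma). In Wnt1 culture it had 7448 and 5740.3, a log2 fold change over stalk of 2.02 ± 0.41 (adjusted p = 0.0124). Every culture array was above every uncultured array, and unlike the 5 rising Hox genes it was above 299 on all 8 arrays, with 2053 and 3652 in tip. Tip over stalk gave 0.77 ± 0.41, without overlap and not called. Hoxd3os1, between Hoxd8 and Hoxd3, had 485 and 111 in control culture, against 19.1 and 20.7 in stalk. It was called higher at 2.16 ± 0.74 (adjusted p = 0.0473 by limma) but was undetected in stalk. It passed the filter only through culture arrays, as did 4902 genes of which 34.4% were called higher. These were the 2 measured genes of a list of 12 non-coding cluster genes.

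Of 8 measured TALE cofactors, 1 was higher and 2 lower in control culture than in stalk, beside 17.1% of all genes called higher and 9.26% lower. The list median was -0.75, beside 0.45 for all genes and -0.12 for those that passed the filter on uncultured arrays. Meis1 had 968 and 1673 in control culture, against 3628 and 3300.0 in stalk (-1.41 ± 0.34, adjusted p = 0.0159 by limma), and Pbx3 had 3959 and 5979.6 in control culture, against 12617 and 10639 in stalk (-1.24 ± 0.43, adjusted p = 0.0486). In both genes every culture array was below every uncultured array. Pbx4, called higher, was undetected in stalk, at 9.45 and 7.33, and passed the filter only through culture arrays. Of the 4902 genes that passed in that way, 34.4% were called higher in control culture and 17.3% in Wnt1 culture. Meis2 and Pbx2 overlapped, at -0.75 ± 0.46 and -0.42 ± 0.37 on the log2 scale. In Wnt1 culture 1 was higher than in stalk (Pbx4) and 1 lower (Meis1, -1.40 ± 0.34, adjusted p = 0.0216 by limma), beside 9.35% and 6.88% of all genes.

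Among 16 measured chromatin regulators of Hox clusters, 1 was higher and 3 lower in control culture than in stalk, beside 17.1% and 9.26% of all genes, and 13.3% lower among genes that passed the filter on uncultured arrays. The list median was -0.88. The 3 lower genes encode Polycomb proteins. Rnf2, the ubiquitin ligase of Polycomb complex PRC1, had 582 and 773 in control culture, against 3146 and 3215 in stalk (-2.17 ± 0.33, adjusted p = 0.00418 by limma). Suz12 and Ezh2, subunits of the complex that methylates histone H3, were lower too. Suz12 had 1685 and 1538 in control culture, against 5088 and 3605 in stalk (-1.39 ± 0.33, adjusted p = 0.0160), and Ezh2 had 2856 and 3147 in control culture, against 5724 and 7729 in stalk (-1.14 ± 0.36, adjusted p = 0.0368). The gene called higher was Kmt2a, a Trithorax methyltransferase, with 1158 and 784 in control culture, against 276 and 402 in stalk (1.40 ± 0.40, adjusted p = 0.0264). Arrays were lower without overlap for 12 of the 16, beside 25.4% of all genes. Among these 12 were Wdr5, Ash2l, Men1 and Kat6a, which are not Polycomb genes, none of them called. Brpf1 and the Polycomb genes Cbx2 and Cbx8 overlapped. Log2 fold changes were positive for 2 of the 16.

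In Wnt1 culture 6 of the 16 were lower than in stalk and 0 higher, beside 6.88% and 9.35% of all genes, and 9.89% lower among genes that passed the filter on uncultured arrays. The list median was -0.96. The 4 with the smallest p were Jarid2, which recruits Polycomb, at 720.5 and 639.9 in Wnt1 culture, against 3684 and 2712 in stalk (-2.15 ± 0.32), Rnf2 at -1.64 ± 0.33, Ezh2 at -1.51 ± 0.36 and Phc1 at -1.33 ± 0.37. Their adjusted p were 0.00359, 0.0120, 0.0205 and 0.0337 by limma. Wnt1 culture over control culture gave 0 calls in this list, as in the other accompanying lists.

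**Figure D4:**
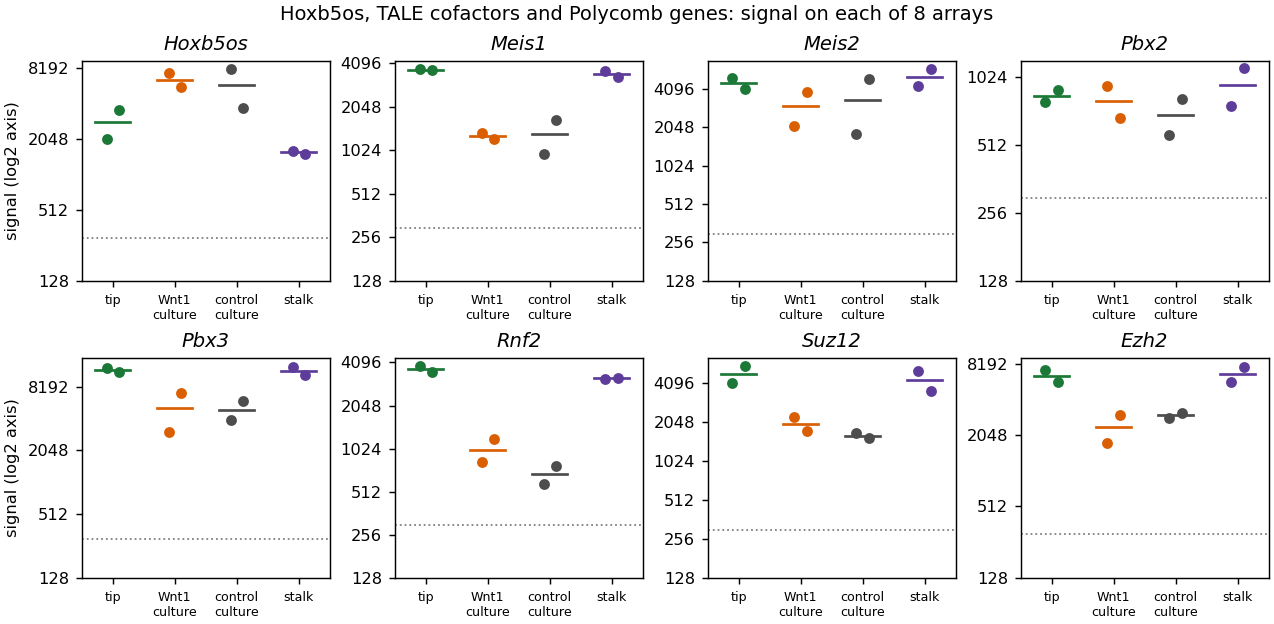
Signal of Hoxb5os, the TALE cofactors Meis1, Meis2, Pbx2 and Pbx3, and the Polycomb genes Rnf2, Suz12 and Ezh2 on each of 8 arrays (log2 axis, which differs between panels), in the order tip, Wnt1 culture, control culture and stalk. Points are arrays, bars are means of 2, and the dotted line is a signal of 299. Hoxb5os lies higher in both cultures than in stalk, and Meis1, Pbx3, Rnf2, Suz12 and Ezh2 lie lower.

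Of 8 measured upstream inducers (retinoic acid enzymes and receptors, Cdx genes and Gdf11), 3 were called higher in control culture than in stalk, Cdx4, Gdf11 and Cdx2, and 0 lower. All 3 were undetected in stalk, at 44.8 or less, and passed the filter only through culture arrays, as did 4902 genes of which 34.4% were called higher and 0% lower. Aldh1a2, which makes retinoic acid, gave 0.02 ± 0.34 and its response gene Rarb -0.58 ± 0.39, neither called. In Wnt1 culture 2 were higher than in stalk (Cdx2 and Gdf11) and 0 lower. Of the genes that passed only through culture arrays, 17.3% were higher there and 0% lower. Of 11 measured protein-coding genes beside the clusters, 1 was higher and 2 lower in control culture than in stalk. Over all genes, 17.1% were called higher and 9.26% lower. Skap1, the higher gene, neighbours cluster B, was undetected in stalk and passed the filter only through culture arrays. Mtx2 and Lnpk, the lower genes, neighbour cluster D. Mtx2 had 1252 and 916 in control culture, against 2284 and 3207 in stalk (-1.30 ± 0.38), and Lnpk had 10.8 and 130.5 in control culture, against 314 and 376 in stalk (-1.99 ± 0.57), with adjusted p = 0.0278 and 0.0274 by limma. In Wnt1 culture 1 of the 11 was higher (Skap1) and 0 lower, beside 9.35% and 6.88% of all genes.

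Marker genes of several cell types changed in culture as well. Over all genes, 17.1% were called higher and 9.26% lower in control culture than in stalk, and 9.35% and 6.88% in Wnt1 culture, beside which the counts of markers stand. Of 9 lung mesenchyme markers, 7 were lower in control culture than in stalk and 0 higher, and in Wnt1 culture 6 were lower and 1 higher. Tbx4 had 741 and 877 in control culture, against 3432 and 4304 in stalk, and Wnt2 had 1047 and 277 in control culture, against 3136 and 4018 in stalk. Of 6 smooth muscle markers, 5 were higher in each culture and 0 lower, and their summed signal was 149311 to 178691 in Wnt1 culture and 110238 to 125277 in control culture, against 4451 to 5643 in stalk. In tip that sum was 1199.8 to 3849.8 and all 6 markers were lower than in stalk without overlap, none of them called. Tagln, an actin-binding protein of smooth muscle, had 12299.6 and 9306 in control culture, against 189 and 232 in stalk. Sums of marker signals mostly follow their brightest probe sets, here Acta2, at 101822 and 89032 in control culture. The part of these cell types in the Hox results was not tested.

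Of 7 macrophage markers 3 were higher and 0 lower in each culture, with sums of 8224 to 8726 in Wnt1 culture and 7779 to 17484 in control culture, against 3557 to 4261 in stalk. Of 6 endothelial markers 2 were lower in Wnt1 culture and 3 in control culture, with sums of 741 to 1617 with Wnt1 and 1149 to 1324 without, against 5158 to 6472 in stalk. Of 8 epithelial markers 1 was higher in Wnt1 culture and 2 in control culture, with sums of 4390 to 12454 with Wnt1 and 4881 to 5430 without, against 1507 to 1733 in stalk. The highest epithelial sum, on Wnt1 culture replicate 2, mostly follows Krt8 (4384) and Krt18 (6905). Log2 fold changes of Wnt1 culture over stalk were positive for 7 of the 8. Cdh1 went the other way, at 21.2 and 13.9 with Wnt1, against 47.75 and 65.8 in stalk. Among 7 neural markers, a lineage with its own Hox code, 3 were higher in Wnt1 culture and 2 in control culture, and their sums were 1187 to 2509 with Wnt1 and 1322 to 1852 without, against 248 to 583 in stalk. Of these, Phox2a, Ret, Tubb3, Stmn2 and Th passed the filter only through culture arrays, as did the epithelial Cdh1, Nkx2-1, Sftpc and Foxa2. Of the 4902 genes that passed in that way, 17.3% were called higher in Wnt1 culture and 34.4% in control culture. Array medians were higher in culture as well. Of 6 mesothelial markers 1 was higher in each culture, and of 5 erythroid markers 2 were lower in Wnt1 culture, and 4 lower and 1 higher in control culture. In tip the sums were 1249 to 4395 for macrophage, 2902 to 4228 for endothelial, 1631 to 2657 for epithelial and 435 to 536 for neural markers. Mesothelial sums were 4420.3 to 7503 in tip, against 3266 to 3532 in stalk, and 4 of the 6 markers were higher in tip without overlap, none of them called. No marker was listed at 0 on any array. In tip over stalk 0 genes of any list were called.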

How the data were processed

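Lung mesenchyme RNA was amplified in 2 cycles and hybridised to 1-colour Affymetrix arrays, per the labels' protocols. The deposited values are linear intensity signals, with a value for every probe set on each array, which the authors produced with MAS5 in Affymetrix Expression Console, per the submitters' processing notes; the tool versions are not stated there. Each array's 2% trimmed mean lay between 500.002 and 500.005, so the arrays had been scaled to a common mean. MAS5 scaling keeps differences in array medians, and dim signals are near background.

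Of 45101 probe sets, 64 controls were left out, 34945 had 1 symbol, 932 several and 9160 none in the platform annotation; only those with 1 symbol were used. The probe set with the highest mean stood for a gene. Genes above 96.6, the 40th percentile, on at least 2 arrays were tested (16112). Log2(value + 44) was fitted over all 4 groups with limma 3.58.1 (R 4.3.3; lmFit, then eBayes with an intensity trend), with 4 contrasts and Benjamini-Hochberg adjustment at 0.05; fold changes of dim genes are understated on this scale. Tables and figures used Python 3.11.15, pandas 2.3.3 and matplotlib 3.10.9. The procedure was tested on simulated data. The number of arrays and, for dim genes, the background limit the precision, and scan batches were not analysed here.

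The members, and the accompanying gene lists, were chosen with earlier results of these data known. Array values and fold changes are given for Hox genes past the threshold in any comparison or above the highest array median on all arrays of a group, and the rest by range; from each list up to 4 genes past the threshold, by smallest p, are named. Hoxa9, Hoxd13, other dim genes and uncalled list genes named with values fall outside this rule in part and were chosen after their values were seen. Replicate numbers were not taken to pair the arrays: deviations of same-numbered arrays correlated at -0.08 between tip and stalk, 0.30 between Wnt1 and control culture, and 0.14 and 0.15 between control and Wnt1 culture and stalk. The alternatives were 23: other constants, filters, scalings, variance models, probe set rules, a replicate block and each array left out.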

Additional observations from a re-analysis of the deposited data

How the results depend on the processing

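Over 23 alternatives the tip over stalk counts stayed at 0 in each direction, as did the count of genes lower with Wnt1 than in control culture; the count higher there was 0, with 0 to 1 when an array was left out. Control culture over stalk gave 5 Hox genes higher, but 8 without a filter, 3 with a filter at the highest array median, 0 with dim values raised to it, 2 with quantile normalization and 2 with centring, and 0 to 7 when an array was left out. Its 3 lower genes became 1 with dim values raised, 1 with quantile normalization and 0 to 4 when an array was left out. Wnt1 culture over stalk gave 4 higher, but 2 with the stricter filter, 0 with dim values raised, 2 with quantile normalization, 2 with centring and 0 to 8 when an array was left out. Its 1 lower gene became 0 with dim values raised, 0 with quantile normalization, 3 with centring, 0 with the mean of probe sets and 0 to 2 when an array was left out. With the replicate number as a block in the fit the counts were 0 and 0 for tip over stalk and for Wnt1 over control culture, 6 and 3 for control culture over stalk, and 5 and 1 for Wnt1 culture over stalk. Over all genes the block gave 3516 higher and 1904 lower in control culture, and without stalk replicate 2 these were 39 and 22, where fewer samples remain. Of 1828 single values under the alternatives, 1662 kept their direction and side of the threshold, and 77 changed sign, of which 0 were called in either fit. The cause of the changes was not tested. Signals below about 299 limit what can be said of the genes of high paralogue number.

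Fold changes that changed sign follow, on the log2 scale.
Under quantile normalization, the values were Hoxa5 -0.019 for tip minus stalk, and Hoxa3 0.21 for Wnt1 minus control culture, and Hoxa3 -0.11, Hoxb4 0.25 and Hoxc4 0.42 for control culture minus stalk. With log values centred on each array median, the values were Hoxa5 -0.048 for tip minus stalk, and Hoxa2 0.0501, Hoxa3 0.12 and Hoxb5 0.15 for Wnt1 minus control culture, and Hoxa3 -0.71, Hoxb1 -0.88, Hoxb2 -1.06 and Hoxd3 -0.18 for control culture minus stalk, and Hoxa3 -0.58 and Hoxb2 -0.67 for Wnt1 culture minus stalk. With the mean over the probe sets of a gene, the values were Hoxc5 0.024 for tip minus stalk, and Hoxa9 -0.045 and Hoxc5 -0.47 for Wnt1 minus control culture, and Hoxb4 0.064 and Hoxc5 0.71 for control culture minus stalk, and Hoxc5 0.24 for Wnt1 culture minus stalk. With each probe set tested on its own, the values were Hoxc5 0.43 for tip minus stalk, and Hoxa3 0.98, Hoxa9 -0.16 and Hoxc5 -1.18 for Wnt1 minus control culture, and Hoxc5 1.79 for control culture minus stalk, and Hoxc5 0.61 for Wnt1 culture minus stalk. With dim values raised to the highest array median, the values were Hoxa3 0.082, Hoxa9 -0.093 and Hoxa10 0.011 for Wnt1 minus control culture. Leaving out 1 array at a time, the ranges for tip minus stalk were Hoxa5 -0.16 to 0.22, Hoxb2 -0.077 to 0.30, Hoxb3 -0.51 to 0.10, Hoxb4 -0.12 to 0.32, Hoxb5 -0.31 to 0.094, Hoxc10 -0.28 to 0.069, Hoxc4 -0.16 to 0.0499, Hoxc5 -0.99 to 0.22, Hoxc6 -0.071 to 0.78, Hoxc8 -0.0104 to 0.72 and Hoxd11 -0.014 to 0.79. Leaving out 1 array at a time, the ranges for Wnt1 minus control culture were Hoxa10 -1.11 to 0.48, Hoxa2 -0.87 to 0.57, Hoxa3 -0.71 to 0.55, Hoxa5 -0.13 to 0.78, Hoxa9 -0.47 to 0.61, Hoxb2 -0.055 to 0.43, Hoxb5 -0.55 to 0.46, Hoxc10 -0.11 to 0.62, Hoxc5 -0.56 to 1.02 and Hoxc8 -0.81 to 0.38. Leaving out 1 array at a time, the ranges for control culture minus stalk were Hoxa2 -0.15 to 0.10, Hoxb1 -0.23 to 0.84, Hoxb2 -0.10 to 0.35, Hoxc4 -0.15 to 0.12 and Hoxc5 -1.15 to 0.43. Leaving out 1 array at a time, the ranges for Wnt1 culture minus stalk were Hoxa2 -0.89 to 0.55, Hoxa3 -0.23 to 1.03, Hoxb1 -0.71 to 0.36 and Hoxc5 -0.73 to 0.48.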
